A study of Macaca mulatta with 28 samples.

Results

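The genes described here encode the opioid receptors and the precursors of the opioid peptides. They were chosen by symbol as 8 genes: the receptors OPRK1 (kappa), OPRM1 (mu), OPRD1 (delta) and OPRL1 (nociceptin), and the precursors PDYN (prodynorphin), PENK (proenkephalin), PNOC (prepronociceptin) and POMC (proopiomelanocortin). Of these, 7 had an entry among the 16885 named transcripts of the deposited table, and all 7 were among the 13769 transcripts that reached 5 counts in at least 3 animals. OPRD1 was not analysed here.

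Opioid receptors couple to inhibitory G proteins, and their activation generally lowers the excitability of a neuron and its transmitter release. Dynorphins made from PDYN act mainly on the kappa receptor, enkephalins from PENK mainly on the delta and mu receptors, beta-endorphin from POMC mainly on the mu receptor, and nociceptin from PNOC on the OPRL1 receptor. In the ventral tegmental area (VTA) of the midbrain, where the dopamine neurons of the mesolimbic pathway have their somata, kappa receptors inhibit dopamine neurons directly, while mu receptors are known to relieve them of inhibition by acting on GABA neurons.

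RNA was sequenced from VTA tissue punches of 28 adult male rhesus macaques, 1 library per animal. Drinkers (n = 17) had started drinking under schedule-induced polydipsia, then had open access to ethanol for most of each day over many months, interrupted by forced abstinence. The labels placed them in the drinking categories Low (n = 1), Binge (n = 2), Heavy (n = 5) and Very Heavy (n = 9), and they had last been abstinent for 30 days. Controls (n = 11) had no ethanol. By the study's methods some controls were yoked to a drinker and took a maltodextrin solution of equal calories, and the others shared the housing with no drinking procedure. The labels do not tell these apart, so the controls are a mixed group here. All animals carried the same genotype, labelled WT. The study's own records also placed the animals in cohort 1 (8 controls and 8 drinkers) or cohort 2 (3 controls and 9 drinkers), a division that the sample labels did not carry and that was used here as a batch. Of the categories, the Low animal was in cohort 1 and the Binge animals were in cohort 2, so cohort and category cannot be told apart for them. Of the Heavy animals 4 were in cohort 1 and 1 in cohort 2, and of the Very Heavy animals 3 and 6.

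The libraries held between 12303915 and 27338673 estimated counts, and between 36.4% and 60.6% of these came from 13 mitochondrial transcripts. Markers of dopamine neurons were detected in every punch but differed widely. Tyrosine hydroxylase (TH), the rate-limiting enzyme of dopamine synthesis, ranged from 5.58 to 826 CPM (counts scaled to a common library size), and the dopamine transporter SLC6A3 ranged from 6.35 to 833 CPM. The vesicular monoamine transporter SLC18A2 ranged from 0.14 to 151 CPM. The summed level of 13 dopamine neuron markers overlapped between the groups, from 49.6 to 2299 CPM in controls and from 46.9 to 1732 CPM in drinkers. In such bulk tissue, fewer cells of a type and less RNA per cell cannot be told apart.

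What opioid peptide precursors share is written in their coding sequence. Opioid peptides begin with a core of tyrosine, glycine, glycine and phenylalanine followed by leucine or methionine, and are cut out of the precursor at adjacent basic residues. In the RefSeq coding exons of the macaque genome Mmul_10, a search for codons of this core found 7 copies in PENK, of which 1 ended in leucine and 6 in methionine, and 1 copy in POMC that ended in methionine. PNOC held 0 copies of the opioid core and 1 of the nociceptin core, in which the first residue is phenylalanine in place of tyrosine. PDYN was not part of this search. The coding stretch of beta-endorphin, the mu receptor ligand, is shown as an example of such a start, with the 5 codons of the core in capitals.
beta-endorphin: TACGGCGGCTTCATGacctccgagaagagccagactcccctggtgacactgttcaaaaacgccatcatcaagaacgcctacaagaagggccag
It lies in POMC at chr13:83816927-83817019, on the plus strand in coding exon 2 of 2, and follows directly on 2 codons for basic residues. The sequencing measured the precursor transcript as a whole, so it gives no separate value for the peptides cut from 1 precursor.

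The first question was whether drinkers in abstinence differed from controls in the level of any of these transcripts. None of the 7 opioid transcripts passed the test (edgeR quasi-likelihood test, adjusted over all transcripts), where 0% of all 13769 transcripts did. At an unadjusted threshold of 0.05, 1 of the 7 passed, against 630 of all transcripts (4.58%). That transcript was OPRM1, which reached the count minimum through drinkers alone, so nothing is read from its place in this count. DESeq2 called 7 transcripts and limma with voom weights 0 in the same comparison, none of them an opioid transcript. Of the 5 members with enough counts for a fold change, 4 had a fitted level below that of controls and 1 above, with a median log2 fold change of -0.26 beside 0.0015 over all transcripts. Each symbol stands for 1 listed transcript, so counts from other isoforms may be missing from these values. Because no length was at hand for the listed transcripts, the levels of these genes are compared between animals and not with one another.

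OPRK1, the receptor for dynorphins (chr8:53869933-53895542 in Mmul_10, minus strand, whole gene), varied 12.7-fold across the 28 animals. It ranged from 1.83 to 23.1 CPM in controls, with a median of 7.34 CPM, and from 2.45 to 16.1 CPM in drinkers, with a median of 5.49 CPM. Every one of the 17 drinkers lay inside the range of controls, and the lowest and the highest animal of all were controls. By category, the Low animal had 5.27 CPM and the Binge animals 5.97 and 10.6 CPM. The Heavy animals had 2.45, 4.34, 7.06, 9.23 and 13.9 CPM, and the Very Heavy animals ranged from 3.58 to 16.1 CPM with a median of 3.87 CPM. No category stood apart from the controls. The log2 fold change of drinkers over controls was -0.26 ± 0.33 (SE, 95% interval -0.93 to 0.40, adjusted p = 0.9998), and it was 0.03 without the control that had the highest OPRK1 level.

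PDYN (chr10:64501675-64517638, plus strand), which encodes the dynorphins, ranged from 3.89 to 36.7 CPM in controls (median 8.62 CPM) and from 3.06 to 26.7 CPM in drinkers (median 9.38 CPM). Of the drinkers, 14 lay inside the range of controls and 3 below it, and the same control that was highest for OPRK1 was highest for PDYN. The Low animal had 18.5 CPM, the Binge animals 9.38 and 9.89 CPM, and the Very Heavy animals ranged from 3.06 to 18.0 CPM with a median of 8.09 CPM. The Heavy animals split, with 3.58, 4.17 and 4.59 CPM in 3 of them and 15.5 and 26.7 CPM in the others. The log2 fold change of drinkers over controls was -0.37 ± 0.35 (95% interval -1.09 to 0.35, adjusted p = 0.9998), and it was -0.10 without the control that was highest for both. The intervals of OPRK1 and PDYN include no difference and reach down to -0.93 and -1.09 on the log2 scale.

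PENK, the precursor of the enkephalins (chr8:57057984-57063956, minus strand), ranged from 11.8 to 108 CPM in controls (median 42.0 CPM) and from 27.0 to 149 CPM in drinkers (median 51.1 CPM). Of the drinkers, 16 lay inside the range of controls, and 1 Very Heavy animal of cohort 2 lay above it. The Low animal had 52.6 CPM and the Binge animals 27.9 and 47.7 CPM. The Heavy animals had 27.0, 31.8, 50.7, 65.1 and 73.1 CPM, and the Very Heavy animals had a median of 51.2 CPM. The categories overlapped one another and the controls throughout. The log2 fold change of drinkers over controls was 0.08 ± 0.28 (95% interval -0.50 to 0.66, adjusted p = 0.9998), and it was -0.08 without the Very Heavy animal with the highest level. That animal also held the most RNA from a list of 10 markers of hypothalamic neurons, 77.2 CPM in sum, where controls ranged from 1.87 to 9.22 CPM. Its count of thyrotropin-releasing hormone (TRH) was 616, where the median of all animals was 32.5, and its count of the peptide precursor CARTPT was 631, where the median was 24.5. The part of these cells in its PENK level was not tested.

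OPRM1, the mu receptor (chr4:60275359-60397879, plus strand, with 6 RefSeq transcripts, while the table lists 1 transcript), was at the edge of detection in these libraries. The count was 0 in all 11 controls. It was above 0 in 7 of 17 drinkers, with counts of 23 and 4 in Heavy animals, 15 in the Low animal, 12, 8 and 2 in Very Heavy animals and 11 in a Binge animal. Detection was therefore spread over every drinking category, and in each category except Low it was absent in some animals. Pooled over animals, drinkers had 0.203 CPM, while 3 counts over the pooled controls, the limit that a count of 0 allows, would be 0.0127 CPM. No fold is read from these pooled values. Of the 75 pooled counts, 23 came from 1 Heavy animal and 15 from the Low animal, and the limit covers counting error only. The transcript entered the test only through its counts in drinkers, since no control reached the minimum.

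OPRM1 did not pass in the fit over all transcripts (adjusted p = 0.518), and nothing is read from its p-value, since its controls at 0 let it into the test only where drinkers were high. Of the 7 drinkers with a count, 6 were above 3 counts. Within cohort 1, 4 of 8 drinkers and 0 of 8 controls had a count, and within cohort 2, 3 of 9 drinkers and 0 of 3 controls. These detections rest on few counts in single animals, and because the transcript was kept through drinkers alone they are given as a description.

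POMC, the precursor of beta-endorphin (chr13:83809315-83817190, plus strand), was also sparse but was detected in both groups. It was above 0 in 8 of 17 drinkers, with at most 16 counts, and in 4 of 11 controls, with at most 7 counts. Neurons of the hypothalamus and cells of the pituitary are known to make POMC, and the Very Heavy animal with the highest hypothalamic markers had a POMC count of 3. The summed level of 5 measured pituitary markers was at most 0.916 CPM in any animal.

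**Figure D1:**
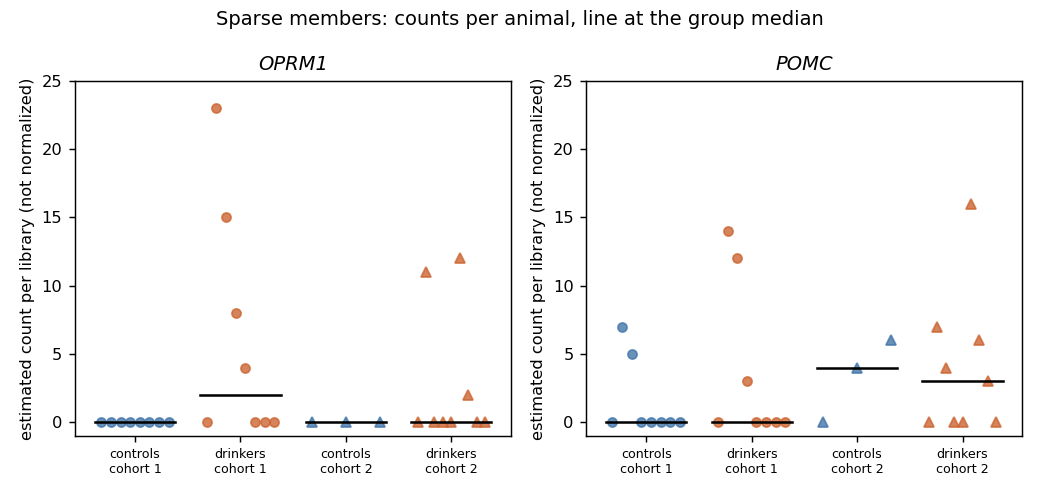
Estimated counts of OPRM1 (left) and POMC (right) in each library, by cohort and drinking, with 1 point per animal and a line at the group median. OPRM1 was at 0 in all 11 controls and reached 23 in a drinker of cohort 1, while POMC had counts above 0 in both groups of both cohorts.

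OPRL1, the nociceptin receptor (chr10:99313412-99328276, plus strand), was the steadiest of the opioid transcripts, with a 2.21-fold range over all animals. It ranged from 23.4 to 46.3 CPM in controls (median 38.7 CPM) and from 21.0 to 42.8 CPM in drinkers (median 32.5 CPM). Of the drinkers, 16 lay inside the range of controls and 1 below it, and 4 controls lay above all drinkers. The Low animal had 29.9 CPM, the Binge animals 35.2 and 35.3 CPM, and the Heavy animals 25.3, 31.9, 34.1, 34.6 and 39.4 CPM. The Very Heavy animals ranged from 21.0 to 42.8 CPM with a median of 31.8 CPM. The log2 fold change of drinkers over controls was -0.15 ± 0.11 (95% interval -0.37 to 0.07, adjusted p = 0.9998). This interval was the narrowest of the 5, and it included no difference.

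PNOC, the precursor of nociceptin (chr8:28580350-28607035, plus strand), had a 27.9-fold range over all animals, which was 13.7-fold without the lowest animal (a control with 4 counts) and 13.9-fold without the highest. It ranged from 0.318 to 8.87 CPM in controls (median 2.23 CPM) and from 0.649 to 4.43 CPM in drinkers (median 2.18 CPM), so all 17 drinkers lay inside the range of controls. The Low animal had 1.70 CPM and the Binge animals 1.87 and 2.18 CPM. The Heavy animals had 0.649, 0.962, 0.997, 3.01 and 3.59 CPM, and the Very Heavy animals ranged from 1.31 to 4.43 CPM with a median of 2.78 CPM. The 3 lowest Heavy animals, all of cohort 1, lay below every Very Heavy animal. The log2 fold change was -0.28 ± 0.37 for drinkers over controls (95% interval -1.04 to 0.47, adjusted p = 0.9998), and it was 0.08 without the control with the highest PNOC level. Very Heavy animals had a log2 fold change of 0.48 ± 0.56 over Heavy animals (adjusted p = 1), and 0.41 ± 0.60 with cohort in the fit (adjusted p = 0.987). Leaving out each of the 5 Heavy animals gave 0.26 to 0.86 for this comparison.

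**Figure D2:**
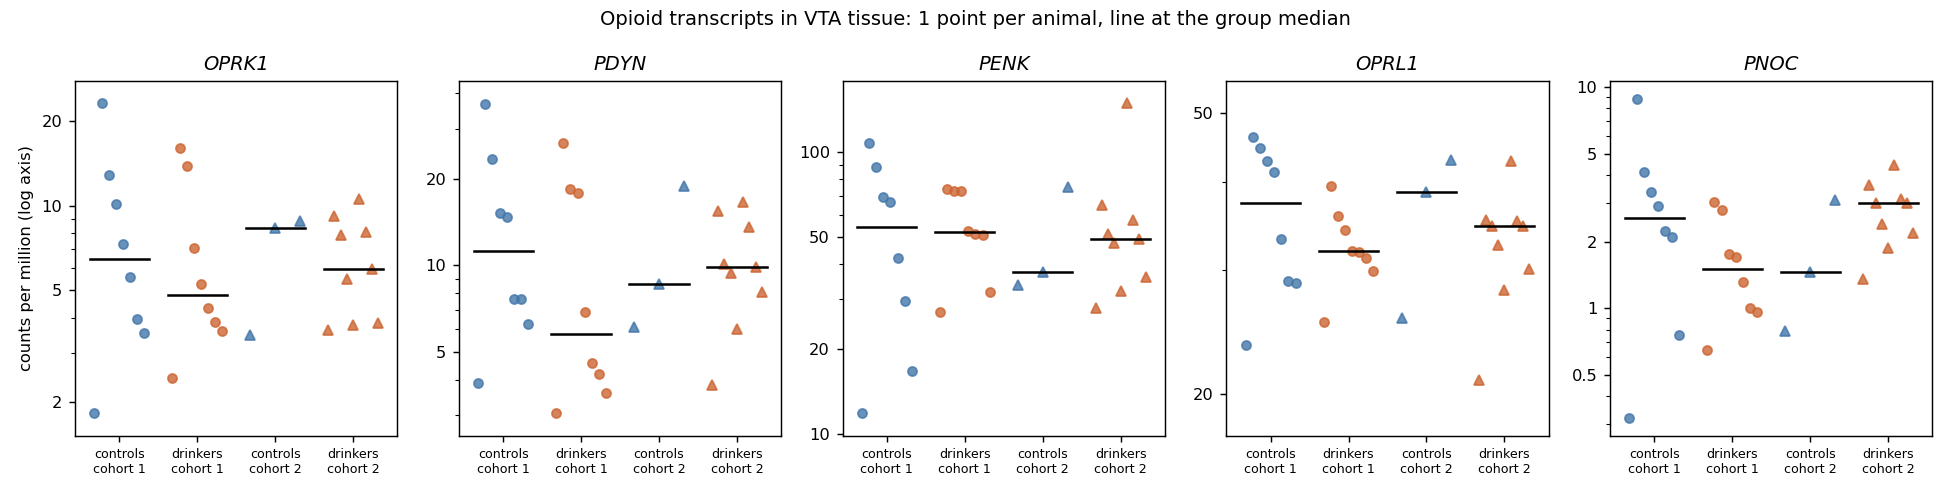
Levels of the 5 opioid transcripts detected in every animal, in CPM on log axes that differ between panels, by cohort and drinking, with 1 point per animal and a line at the group median. Drinkers and controls overlap in every panel, and OPRL1 spans 2.21-fold and PNOC 27.9-fold, or 13.7-fold without its lowest animal.

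Across drinking categories, 0 of the 7 opioid transcripts passed in Very Heavy against controls, Heavy against controls or Very Heavy against Heavy (edgeR, 0% of all transcripts passed in each, and limma called none of the 7). At an unadjusted 0.05, OPRM1, to which the same limit applies, was the 1 of the 7 under the threshold against controls in Very Heavy and in Heavy animals, where 4.62% and 7.15% of all transcripts were. Between Very Heavy and Heavy animals, 0 of the 7 were under an unadjusted 0.05, where 6.81% of all transcripts were. For OPRK1 the log2 fold change over controls was -0.38 ± 0.40 in Very Heavy and -0.13 ± 0.48 in Heavy animals. For PDYN these values were -0.50 ± 0.43 and -0.32 ± 0.52. Each of these 4 values lay within 2 standard errors of no difference. In Heavy animals, leaving out each of the 5 in turn gave -0.48 to 0.09 for OPRK1 and -0.96 to -0.09 for PDYN, so their direction or size depended on single animals. The comparisons of Heavy and of Very Heavy animals share the same controls.

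The animals of cohort 2 and cohort 1 were then compared, averaged over drinkers and controls, since cohort could act as a batch. None of the 7 opioid transcripts passed, where 0% of all transcripts passed by edgeR, 14 transcripts by limma and 83 by DESeq2. At an unadjusted 0.05, 0 of the 7 and 7.44% of all transcripts passed. The 5 fitted log2 fold changes lay between -0.22 ± 0.37 (OPRK1) and -0.0031 ± 0.12 (OPRL1). Leaving out each of the 3 controls of cohort 2 moved OPRK1 to between -0.33 and -0.058.

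Within cohort 1, 132 of all transcripts passed between drinkers and controls by edgeR (0.959%) and 442 by DESeq2, but the edgeR count was 5 with cohort 1 fitted alone and 38 to 169 when 1 animal was left out. Within cohort 2, 0% passed by edgeR, 3 transcripts by limma and 53 by DESeq2. The opioid transcripts were not among them: 0 of the 7 passed in either cohort, and 1 (OPRM1, with the limit given above) was under an unadjusted 0.05 in cohort 1, where 14.7% of all transcripts were. In cohort 2, 0 of the 7 and 2% of all transcripts were under an unadjusted 0.05. OPRK1 had log2 fold changes of -0.28 ± 0.44 in cohort 1 and -0.08 ± 0.58 in cohort 2, and PDYN of -0.44 ± 0.47 and -0.12 ± 0.63. For OPRK1, leaving out 1 animal gave -0.57 to 0.12 in cohort 1. Leaving out each of the 3 controls of cohort 2 gave -0.40 to 0.13 there. In cohort 1, leaving out 1 animal moved PDYN to between -0.78 and -0.08, the latter without the control that was highest for it. OPRL1 had -0.16 ± 0.14 and -0.13 ± 0.19, the latter between -0.32 and 0.019 when each of the 3 controls of cohort 2 was left out.

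PNOC had fitted differences of opposite sign in the cohorts, and PENK went from -0.0012 ± 0.38 in cohort 1 to 0.23 ± 0.51 in cohort 2. In cohort 1, controls ranged from 0.318 to 8.87 CPM (median 2.56 CPM) and drinkers from 0.649 to 3.01 CPM (median 1.51 CPM). In cohort 2, the 3 controls had 0.785, 1.45 and 3.07 CPM, and drinkers ranged from 1.36 to 4.43 CPM (median 2.99 CPM). The groups overlapped in both cohorts. The log2 fold change was -0.90 ± 0.47 in cohort 1 (adjusted p = 0.382) and 0.64 ± 0.64 in cohort 2 (adjusted p = 1). Without the control with the highest PNOC level it was -0.45 in cohort 1, and leaving out each of the 3 controls of cohort 2 gave 0.28 to 1.31 there. The difference between the cohorts was 1.55 ± 0.80 (95% interval -0.10 to 3.20) and did not pass (edgeR, adjusted p = 0.571). Over all transcripts this difference passed for 0.0145% and was under an unadjusted 0.05 for 9.64%, and for the opioid transcripts it was so in 0 of 7.

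**Figure D3:**
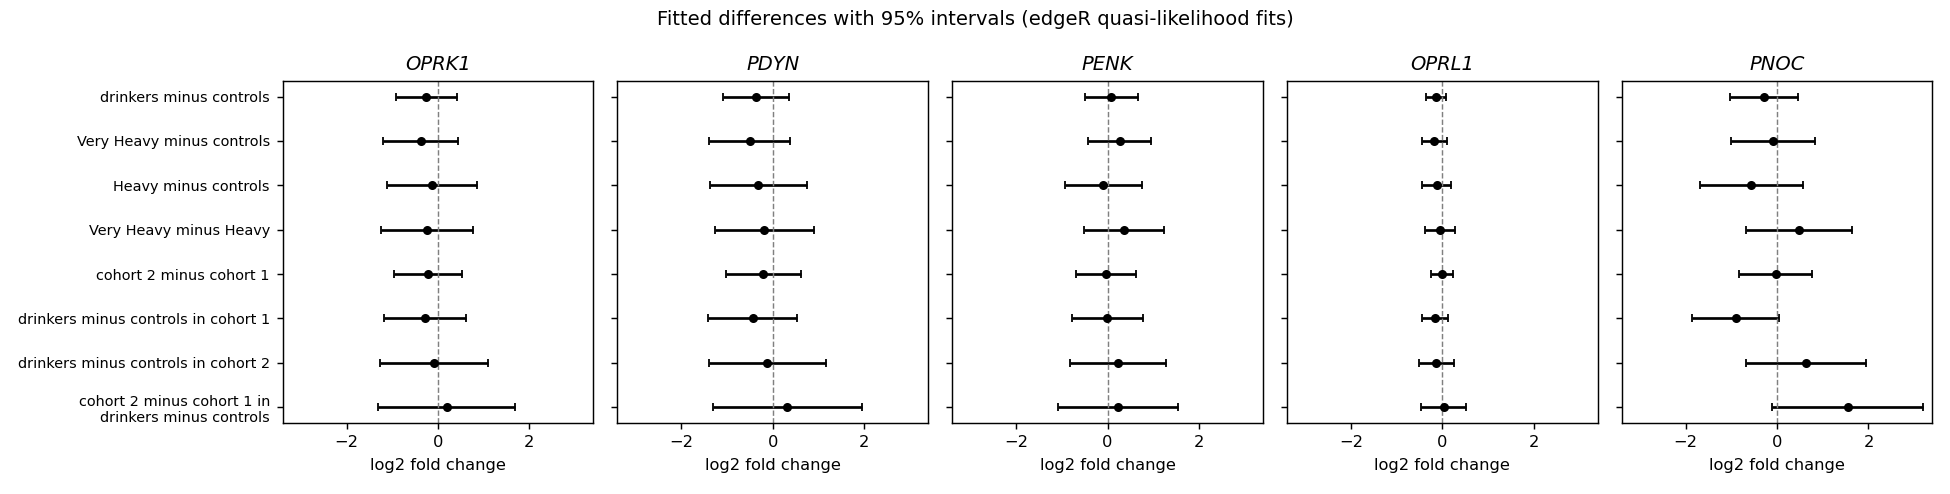
Fitted log2 fold changes with 95% intervals (edgeR) for the 5 opioid transcripts with enough counts, in 8 comparisons, with a dashed line at no difference. Every interval includes 0, those of OPRL1 are the narrowest, and PNOC moves from -0.90 in cohort 1 to 0.64 in cohort 2.

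The transcripts of a receptor and its ligand precursor were next compared across animals. Pearson's r of log2 CPM was computed for the 21 pairs of the 7 opioid transcripts and for each of the 7 with a dopamine neuron score (the mean standardized level of the 13 dopamine markers), 28 relations in all, with permutation tests adjusted over the 28. Of these, 4 passed by Pearson's r and 3 also by Spearman's rho. OPRK1 and PDYN were correlated across the 28 animals, with r = 0.726 (permutation p = 3e-05, adjusted p = 0.00042) and rho = 0.669 (permutation p = 1e-04, adjusted p = 0.0014). Without the 2 animals farthest from the median of OPRK1, r was 0.636 (permutation p = 0.00045). It was 0.660 in drinkers (permutation p = 0.00425, not past the threshold when adjusted over the 28 relations) and 0.819 in controls (permutation p = 0.00195). By cohort it was 0.824 in cohort 1 and 0.337 in cohort 2, where it did not pass (permutation p = 0.283) and ran from 0.130 to 0.468 as each animal was left out.

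The nociceptin receptor and its precursor did not show such a relation at this number of animals. OPRL1 and PNOC had r = 0.251 (permutation p = 0.199, adjusted p = 0.664) and rho = 0.287 (permutation p = 0.138, adjusted p = 0.632). Their r was 0.461 in cohort 1 and -0.12 in cohort 2. Whether the receptor and precursor of the kappa system differ in r from those of the nociceptin system was not tested. For OPRM1, at 0 in 21 animals, a relation with PENK or POMC would rest on the 7 animals with counts and is not given.

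PENK had positive relations with both nociceptin transcripts. With OPRL1, r was 0.597 (permutation p = 0.00092, adjusted p = 0.00859), while rho was 0.498 and did not pass (adjusted p = 0.0542). Within cohorts this r was 0.661 in cohort 1 and 0.522 in cohort 2. With PNOC, r was 0.568 (permutation p = 0.00179, adjusted p = 0.0125) and rho 0.578 (adjusted p = 0.0161). Within cohorts this r was 0.576 in cohort 1 and 0.558 in cohort 2, close to the pooled value. Without the 2 animals farthest from the median of PENK, r was 0.511 with OPRL1 and 0.588 with PNOC. For the 21 relations in which it could be computed, no difference in r between drinkers and controls passed, adjusted or not (permutation of the group labels).

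OPRK1 followed the dopamine neuron markers of the punch. With the dopamine neuron score, r was 0.778 (permutation p = 1e-05, the smallest that the permutations can give, adjusted p = 0.00028) and rho was 0.719 (adjusted p = 0.00112). Without the 2 animals farthest from the median of OPRK1, r was 0.737 (permutation p = 3e-05). With the score held fixed, an adjustment chosen after seeing the data, the partial r of OPRK1 and PDYN was 0.681 (permutation p = 4e-05). PENK had r = -0.38 with the score, which did not pass (adjusted p = 0.205), and OPRL1 and PNOC had r of -0.08 and -0.06. In cohort 1 the r with the score was -0.27 for PENK, -0.074 for OPRL1 and 0.098 for PNOC. In cohort 2 these were -0.67, -0.089 and -0.57.

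Of the relations of the kappa transcripts, only that of PDYN and the score differed between the cohorts when adjusted. The SD of log2 CPM was smaller in cohort 2 than in cohort 1 (0.59 and 1.02 for OPRK1, 0.67 and 1.14 for PDYN). The part of this in the r of each cohort was not tested. The r of OPRK1 and PDYN is given above, and the r of OPRK1 and the score was 0.899 in cohort 1 and 0.402 in cohort 2 (permutation p = 1e-05, the smallest possible, and 0.193), the latter between 0.236 and 0.583 as each animal was left out. The differences between the cohorts in these 2 relations did not pass when adjusted over 28 (adjusted p = 0.153 and 0.0948, permutation of the cohort labels, chosen after seeing the data). PDYN and the score, with r = 0.439 over all animals (adjusted p = 0.108), had r = 0.763 in cohort 1 (permutation p = 0.00112). In cohort 2 their r was -0.59 (permutation p = 0.0421, not past the threshold when adjusted over the 28 relations). The difference between these cohorts of -1.36 passed (adjusted p = 0.00028), the 1 of 28 that did. Leaving out each animal in turn gave r between 0.720 and 0.793 in cohort 1 and between -0.69 and -0.53 in cohort 2. In cohort 1 the animals richest in dopamine markers tended to have more PDYN, while the negative r of cohort 2 did not pass by itself when adjusted.

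**Figure D4:**
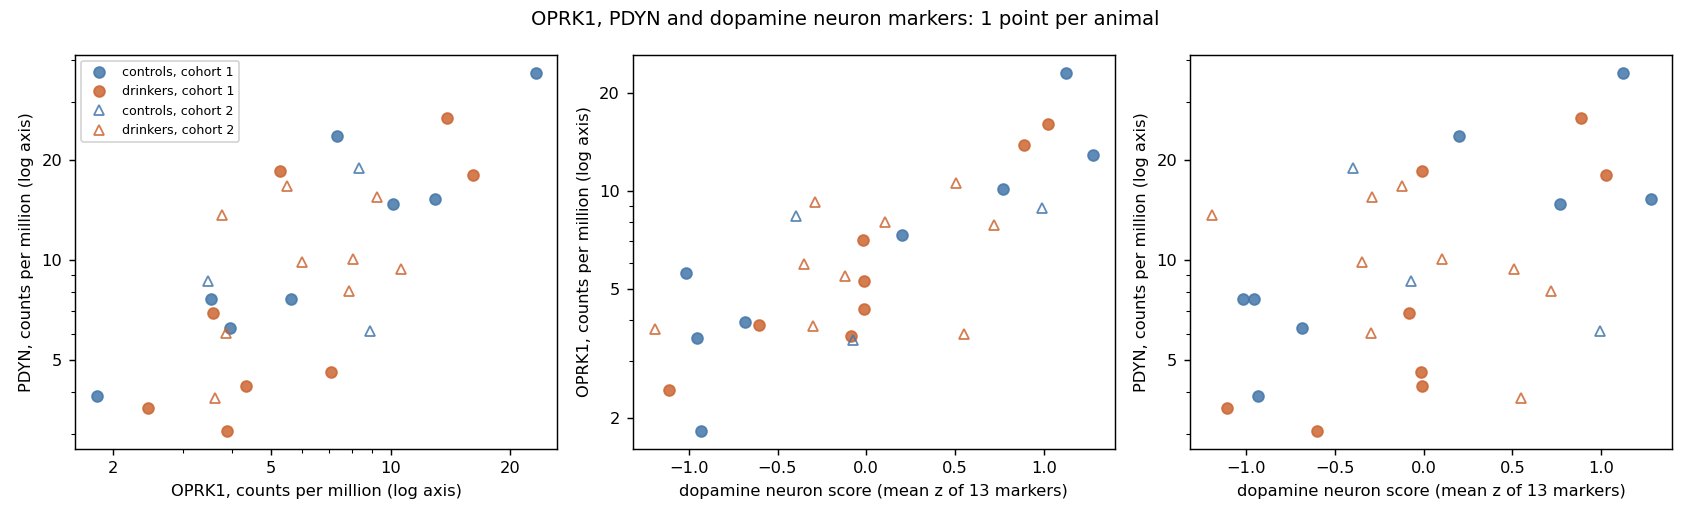
PDYN against OPRK1 (left), OPRK1 against the dopamine neuron score (middle) and PDYN against that score (right), with 1 point per animal, filled for cohort 1 and open for cohort 2, in CPM on log axes. The points of cohort 1 rise in all 3 panels (r = 0.824, 0.899 and 0.763). In the right panel those of cohort 2 fall (r = -0.59, which did not pass when adjusted).

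The transcripts most like each member over the 28 animals, by Pearson's r of log2 CPM and as a description only, were as follows. For OPRK1 they were IGFBP4 (an IGF-binding protein, r = 0.836), CCN3 (a secreted matrix protein, r = 0.818) and KLHL1 (r = 0.813), with PDYN at rank 15. For PDYN they were CEP41 (r = 0.746), OPRK1 itself at rank 2 (r = 0.726) and WNT7B (a Wnt ligand, r = 0.698). PENK was nearest to TOMM34 (r = 0.816), TMEM145 (r = 0.780) and TSPYL1 (r = 0.768), and OPRL1 stood at rank 90 in its list. OPRL1 was nearest to SEZ6L2 (r = 0.842), the potassium channel KCNK9 (r = 0.805) and PNMA3 (r = 0.801), and PNOC to NGEF (r = 0.772), FNDC9 (r = 0.759) and the amino acid transporter SLC7A3 (r = 0.723). All points share their libraries, and so their depth and tissue makeup.

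The machinery around the opioid system was read from lists of genes for peptide processing, peptide degradation, Gi/o protein subunits, receptor desensitization, effectors and other opioid-named genes. Of their 11, 6, 13, 12, 13 and 6 tested transcripts, 0 passed between drinkers and controls over all animals (edgeR), where 0% of all transcripts did. Their median log2 fold changes were 0.02, -0.08, 0.0042, -0.04, -0.10 and 0.05, beside 0.0015 for all transcripts. At an unadjusted 0.05, 2 transcripts of peptide processing, 1 Gi/o subunit and 1 of desensitization were under the threshold (4.58% of all transcripts were), of which the Gi/o subunit and 1 of peptide processing were higher and the others lower. None of these lists had a called transcript by drinking category, between the cohorts or in cohort 2, where 0% of all transcripts passed in each.

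In cohort 1, 2 of 11 transcripts of peptide processing and 1 of 12 of receptor desensitization fell in drinkers, where 0.959% of all transcripts passed in either direction. PCSK1N, which encodes proSAAS, an inhibitor of the prohormone convertase that cuts opioid precursors, ranged from 118 to 276 CPM in the 8 controls and from 71.9 to 117 CPM in the 8 drinkers. The groups did not overlap, with 117.6 CPM in the lowest control and 116.6 CPM in the highest drinker. The transcript was named for its call in these animals, and how many of all transcripts separate in this way was not counted. Its log2 fold change was -0.79 ± 0.15 (adjusted p = 0.0103). In cohort 2 its 3 controls (130.3 to 178 CPM) lay among the 9 drinkers (129.9 to 206 CPM), and the log2 fold change was 0.11 ± 0.19 (adjusted p = 1), or 0.033 to 0.28 when each of those controls was left out. The difference between the cohorts was 0.90 ± 0.25 and did not pass by edgeR (adjusted p = 0.216), while DESeq2 gave an adjusted p of 0.031.

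FURIN, a protease that cuts precursors in the secretory pathway, fell in cohort 1 with a log2 fold change of -0.42 ± 0.11 (adjusted p = 0.0489). GRK2, a kinase that phosphorylates activated receptors, fell with a log2 fold change of -0.32 ± 0.08 (adjusted p = 0.039). FURIN ranged from 26.1 to 34.9 CPM in controls and from 18.0 to 27.8 CPM in drinkers, and GRK2 from 138 to 187 CPM and from 117 to 143 CPM, so that each overlapped slightly. In cohort 2 their log2 fold changes were 0.05 ± 0.14 and 0.06 ± 0.10. All of these calls in cohort 1 come from a fit in which both cohorts share 1 estimate of the spread. With cohort 1 fitted alone, a setting chosen after seeing the data, 5 transcripts passed in place of 132, and PCSK1N, FURIN and GRK2 had adjusted p-values of 0.118, 0.152 and 0.127 with log2 fold changes of -0.79, -0.42 and -0.32. In the shared fit PCSK1N passed in all 19 fits that left out 1 animal, GRK2 in 7 and FURIN in 2. Of 6 alternatives, the one with cohort 1 alone included, PCSK1N passed in 5, GRK2 in 4 and FURIN in 2. Median-of-ratios size factors also ended the calls of GRK2 (adjusted p = 0.0548) and FURIN (0.0657), and voom weights (0.0542) and the dopamine neuron score in the fit (0.0568) that of FURIN.

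**Figure D5:**
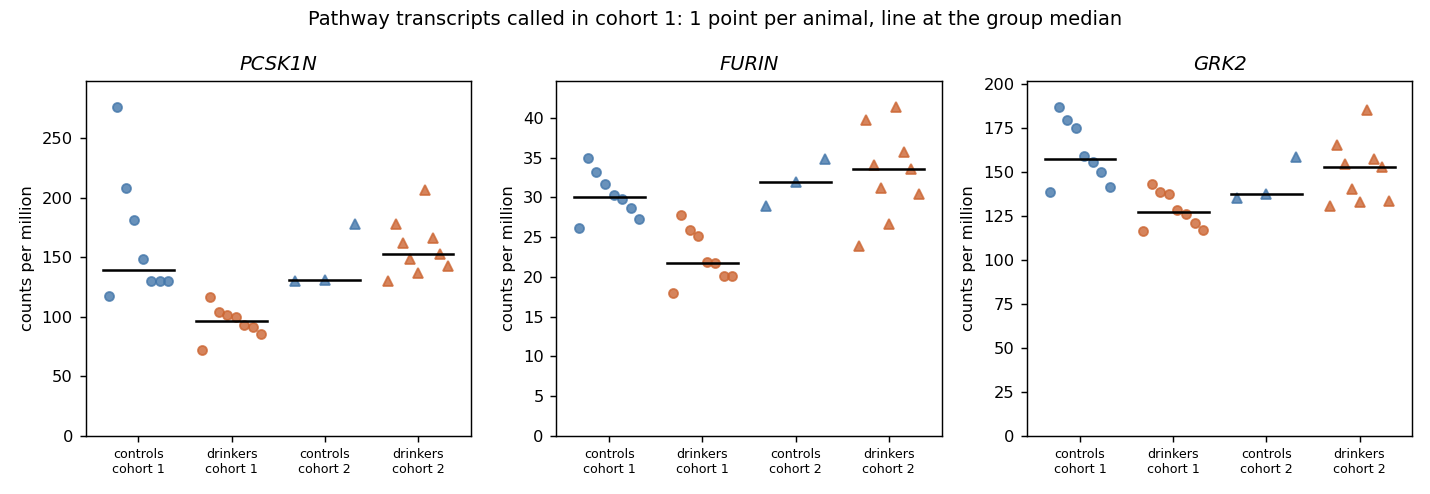
Levels of PCSK1N, FURIN and GRK2 in CPM by cohort and drinking, with 1 point per animal and a line at the group median. For PCSK1N in cohort 1, all drinkers (median 96.2 CPM, highest 116.6 CPM) lie below all controls (median 139 CPM, lowest 117.6 CPM). FURIN and GRK2 overlap slightly there and all 3 overlap in cohort 2.

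In the lists with no call, the transcripts with the lowest p between drinkers and controls were not called either (edgeR). Among degrading enzymes these were DPP3, a peptidase that cleaves enkephalins, with a log2 fold change of -0.10 ± 0.07, and ENPEP, which had counts of at most 10 and was at 0 in 22 of the animals. Among Gi/o subunits they were GNAI3 (0.18 ± 0.07, adjusted p = 0.843) and GNG4 (0.30 ± 0.17). Among effectors they were the kinase MAPK3 (-0.10 ± 0.07) and the calcium channel subunit CACNA1B (-0.19 ± 0.13), and among other opioid-named genes OGFRL1 (0.18 ± 0.11) and WLS (0.26 ± 0.21). The adjusted p of each of these apart from GNAI3 was 0.9998.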

How the data were processed

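The authors trimmed paired reads with Trim Galore 0.6.7 and quantified them with Salmon 1.9.0 against Mmul_10, and used DESeq2 1.36.0 in their own normalization. The deposited table holds estimated counts, 1 Ensembl transcript per gene symbol. How that transcript was chosen is not given in the sources used here. The table lists 16886 entries, 1 without a symbol (1.16e-05% of counts), which was left out. Estimated counts were then rounded to integers.

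The filter kept a transcript where 3 or more animals had 5 or more counts. Tests used edgeR 4.0.16 (quasi-likelihood test, TMM, R 4.3.3), with Benjamini-Hochberg adjustment over 13769 transcripts and a threshold of 0.05. Fits compared drinkers with controls, drinking categories (5 levels) and cohorts (4 levels). Alternatives were DESeq2 1.42.0, limma 3.58.1 with voom weights, median-of-ratios size factors, other filters (none, or 10 counts in every animal), cohort or dopamine neuron score in the fit, library sizes without mitochondrial transcripts, subsets of animals and animals left out in turn (each of the 28 for drinkers against controls, each of the 5 Heavy animals for the categories, and each of the 3 controls of cohort 2 for the cohorts). Alternatives added after seeing the data were tests of detection (given no weight here, since OPRM1 was kept through drinkers alone), partial correlations, cohort differences in r, leaving out animals of cohort 1 and fitting each cohort alone. Correlations used log2 CPM (prior count 2) and 100000 permutations (scipy 1.17.1). The scripts were tested on simulated data.

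Depth ranged from 12303915 to 27338673 counts per library, so a count of 0 allows up to 3 counts. Intervals are at 95%, and limits cover counting error only. P-values measure the spread between animals, 1 library each. No libraries were alike enough to be a single library in 2 columns (highest correlation 0.912, 7.34% of counts identical in that pair).

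The members and gene lists were chosen with earlier results of these data known. Named were all members, the 3 nearest transcripts of each member with a median of at least 10 counts, every called gene of a pathway list or otherwise the 2 with the lowest p between drinkers and controls, and the dopamine markers TH, SLC6A3 and SLC18A2. Which controls were yoked for calories is not given per animal in the labels and was not used. Coordinates and sequences are from RefSeq on Mmul_10, and some sequences are not reported here.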

Additional observations from a re-analysis of the deposited data

Results flagged for a closer look

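PENK in the Very Heavy animal of cohort 2 named above stood apart from the other drinkers of its cohort. Its level was 7.22 on the log2 CPM scale, where the other 8 ranged from 4.81 to 6.03, and its gap to the nearest was 0.494 of the whole range, just above the 0.493 that Dixon's test allows for 9 animals. Of 25 groups examined in this way for the 5 opioid transcripts detected in every animal, 1 was set apart, and chance does so in about 1 in 20. The same animal held the highest summed level of hypothalamic markers, and the part of these in its PENK level was not tested.

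The relation of PDYN to the dopamine neuron score differed between the cohorts, and the difference of r in cohort 2 minus r in cohort 1 was -1.356 (permutation of the cohort labels, adjusted p = 0.00028 over 28 relations). It was tested after the pattern had been seen in the same animals, and drinkers make up 8 of 16 animals in cohort 1 and 9 of 12 in cohort 2.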

How the results depend on the processing

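No opioid transcript passed in any fit across all transcripts, under any alternative that was run. Counts of all transcripts called moved: DESeq2 called 7 in place of 0 between drinkers and controls, 83 between cohorts (limma 14), 442 in place of 132 in cohort 1, 53 in cohort 2 (limma 3) and 146 in place of 2 for the difference of the cohorts. Cohort 1 alone gave 5 for drinkers against controls. Leaving out 1 animal gave 38 to 169 in cohort 1 (19 fits) and 0 to 4 (3 fits) for the difference of the cohorts.

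Signs of uncalled log2 fold changes turned as follows, and the cause was not tested. With single cohorts, drinkers against controls gave -0.0035 for PENK (cohort 1) and 0.64 for PNOC (cohort 2). With voom weights, PNOC was 0.17 in Very Heavy and PENK 0.047 in Heavy against controls, PDYN 0.078 in Very Heavy against Heavy, PENK 0.021 and PNOC 0.089 in cohort 2 against cohort 1, PENK 0.20 in cohort 1 and -0.082 for the difference of the cohorts. PENK in cohort 1 was 0.015 with median-of-ratios factors, 0.016 with DESeq2 and 0.097 with the dopamine neuron score. With that score OPRK1 was 0.049 in Heavy against controls, 0.0081 in cohort 2 against cohort 1 and 0.068 in cohort 2, and PDYN was 0.094 in cohort 2 against cohort 1.

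Leaving out 1 animal gave the ranges below, over all 28 animals for drinkers against controls, over the 5 Heavy animals for categories, over the 3 controls of cohort 2 for the cohort comparisons and over 19 animals (cohort 1 and those 3 controls) in cohort 1. Animals outside these sets were not left out, so those ranges may be too narrow. For drinkers against controls they were -0.39 to 0.035 (OPRK1), -0.080 to 0.24 (PENK) and -0.41 to 0.084 (PNOC). For Heavy against controls they were -0.48 to 0.089 (OPRK1) and -0.27 to 0.067 (PENK), and for Very Heavy against Heavy -0.47 to 0.11 (OPRK1), -0.13 to 0.011 (OPRL1) and -0.41 to 0.46 (PDYN). For cohort 2 against cohort 1 they were -0.33 to -0.058 (OPRK1), -0.51 to -0.056 (PDYN), -0.080 to 0.092 (OPRL1), -0.27 to 0.068 (PENK) and -0.36 to 0.15 (PNOC). In cohort 1 they were -0.57 to 0.12 (OPRK1), -0.15 to 0.22 (PENK) and -0.78 to -0.079 (PDYN). In cohort 2 they were -0.40 to 0.13 (OPRK1), -0.32 to 0.019 (OPRL1), -0.42 to 0.50 (PDYN), 0.024 to 0.69 (PENK), -0.012 to 0.11 (FURIN), 0.022 to 0.14 (GRK2) and 0.033 to 0.28 (PCSK1N). For the difference of the cohorts they were -0.13 to 0.40 (OPRK1), -0.16 to 0.18 (OPRL1) and 1.19 to 2.21 (PNOC).

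Correlations that passed over all animals lost their call, adjusted within the setting, as follows. OPRK1 and PDYN had r = 0.337 in cohort 2 and 0.660 in drinkers, and OPRK1 and the score 0.402 in cohort 2. PENK and OPRL1 had r = 0.522 in cohort 2, 0.518 in drinkers, 0.739 in controls and 0.511 without the 2 animals farthest from the median. PENK and PNOC had r = 0.547 on the linear scale, 0.576 in cohort 1, 0.558 in cohort 2, 0.486 in drinkers and 0.622 in controls. Of the uncalled relations named above, signs turned for OPRL1 and PNOC (-0.12 in cohort 2, -0.036 in drinkers). They also turned for PDYN and the score (-0.59 in cohort 2) and for PNOC and the score (0.098 in cohort 1). Other uncalled relations turned too, such as PDYN and PENK, with r = -0.053 over all animals, -0.27 in cohort 1 and 0.614 in cohort 2 (difference of the cohorts, permutation adjusted p = 0.305). No paired analysis was possible because the labels number no replicates and do not say which control was yoked to which drinker. Cohort 2 has 3 controls, which limits its comparisons, and OPRM1 and POMC are limited by their low counts.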

Other observations

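Among the enzymes that process peptide precursors, carboxypeptidase E (CPE), which trims basic residues from the ends of the cut peptides, had a log2 fold change of 0.24 ± 0.08 in drinkers over controls (95% interval 0.08 to 0.40). It did not pass (edgeR, adjusted p = 0.552), and it was chosen after its values were seen. Its log2 fold change was 0.23 ± 0.10 in cohort 1 and 0.15 ± 0.13 in cohort 2.

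Markers of other cells and regions in the punches were summed for each animal. These sums are not corrected for transcript length and are not set against one another. Oligodendrocyte markers ranged from 10796 to 23349 CPM. Markers of GABA neurons ranged from 122 to 465 CPM and those of glutamate neurons from 44.7 to 452 CPM. Striatal markers reached at most 8.95 CPM, and markers of the habenula and interpeduncular nucleus lay between 2.09 and 17.8 CPM. In the list of hypothalamic markers, 0 of 7 tested transcripts passed between drinkers and controls (edgeR), where 0% of all transcripts did. Under an unadjusted 0.05 were 3 of the 7, where 4.58% of all transcripts were. Of these, CARTPT (log2 fold change 1.76 ± 0.71) and TRH (1.52 ± 0.63) were higher and HCRT, which encodes orexin, was lower, with at most 12 counts and a count of 0 in 17 animals. CARTPT and TRH are the transcripts that peaked in 1 Very Heavy animal.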
